A study of Mus musculus with 15 samples.

Results

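Mir-151 is an intronic miRNA of the Ptk2 gene, which encodes focal adhesion kinase. Its members here were all rows of the deposited miRNA counts whose name starts with mir-151-, which gave 2 of 1836 rows, the 3p and the 5p arm of 1 precursor. They were chosen with earlier results of these counts known, among them the level of mir-151, the arm its reads lie on and its values under genotype and supplement. All of its values are therefore given as a description, with errors and intervals but without a p-value.

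MiRNA was sequenced from the left ventricle (LV) of 15 mice in 3 groups of 5, with 1 library per mouse. The first group was wild type (wt) and the second AGAT-/-, that is, lacking arginine:glycine amidinotransferase (gene Gatm) in the whole body, the enzyme that makes homoarginine and the precursor of creatine. The mice labelled AGAT-/-hArg carried the same deletion and received homoarginine for 4 weeks from osmotic mini pumps, whereas wt and AGAT-/- mice are labelled as controls without supplement. All groups share a C57BL/6J background reached by backcrossing and heterozygous parents, and they were littermates; the labels give neither age nor sex. The libraries of wt and AGAT-/- mice carry lane 8 in their labels and those of AGAT-/-hArg mice lane 2, so lane and supplement cannot be told apart. Gatm gives no miRNA, and the genotype could not be checked in these counts.

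A miRNA precursor is a hairpin that the enzyme Dicer cuts into a duplex, of which one strand, from the 5p or the 3p arm, is usually kept in an Argonaute protein and guides it to mRNAs by the seed, bases 2 to 8. An intronic miRNA is cut out of the transcript of its host gene, and its level may follow that of the host. Focal adhesion kinase transmits signals from integrins and, in cardiomyocytes, lies at the costameres, where the contractile apparatus is anchored to the extracellular matrix. Mir-151 is counted among miRNAs that arose from LINE-2 repeats, together with mir-28, mir-708 and mir-325. Its primary transcript is known to be edited from adenosine to inosine in the brain, which these counts cannot show.

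The GENCODE M21 annotation of GRCm38 places Mir151 at chromosome 15, 73254815 to 73254882, minus strand, which is 68 bases. Ptk2 spans 73205102 to 73423280 on the same strand, or 218179 bases. The hairpin was intronic in all 5 Ptk2 transcripts that span it and exonic in 0. In the principal coding transcript, Ptk2-201, with 32 exons, it sits in intron 22, which runs from 73242478 to 73257033. That intron is 14556 bases long, and the hairpin begins 2151 bases after the preceding exon and ends 12337 bases before the next. A second annotated gene, 1700085D07Rik, also overlaps the hairpin.

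The RefSeq miRNA sequences used here (GRCm38.p6) hold 4 of the 5 related precursors. The mature sequences of mir-28a and mir-708 are shown because mir-28a-3p is the only relative with more than 11 reads in any library, and because their 5p arms show what a shared seed looks like. Capitals mark the seed, and sequences run 5′ to 3′.
mmu-miR-28a-3p (chr16:24827908-24827929, plus strand): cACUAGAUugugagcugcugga
mmu-miR-708-3p (chr7:96249496-96249517, plus strand): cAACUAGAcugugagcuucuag
mmu-miR-28a-5p (chr16:24827868-24827889, plus strand): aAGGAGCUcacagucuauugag
mmu-miR-708-5p (chr7:96249450-96249472, plus strand): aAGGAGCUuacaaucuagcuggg
The 5p arms of mir-28a and mir-708 share the seed AGGAGCU, while the 3p arms have different seeds and share UGUGAGCU as their longest common run, of 8 bases.

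Among the arms that have reads in these counts, mir-151-3p was one of the 4 most read. The main mature arms of mir-1a and mir-133a, known as abundant miRNAs of cardiac muscle, are at 0 in the counts. Neither ranks nor shares of reads include them, and 672 of 1836 rows are at 0 in all libraries. Mir-151-3p held 526727 reads over the 15 libraries, which is 7.73% of all reads in the deposited counts. Only mir-378a-3p with 45.0% and mir-378c-5p with 19.9% took clearly more, and mir-378d-5p took a similar share, 7.66%. The next row, mir-322-5p, held 2.49%. All rows that start with mir-378 took between 70.7% and 74.9% of the reads in a library, so that mir-151-3p made up much of what remained, between 25.5% and 29.6% of the reads outside mir-378. These are shares of the deposited reads and not of all miRNA in the heart. Nor are they shares of molecules, since ligation and amplification weigh each small RNA by its own sequence.

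Library totals were between 365634 and 570492 reads. In wt mice 1 to 5, mir-151-3p had 35332, 33707, 38004, 30673 and 32958 reads. AGAT-/- mice 6 to 10 had 33489, 42775, 27128, 39885 and 33205 reads. AGAT-/-hArg mice 11 to 15 had 36502, 44680, 31611, 26563 and 40215 reads. Counts of this size carry a counting error near 0.534%, which does not include library preparation. Within groups, all 30 pairs of libraries differed beyond sampling noise, with a chi-square of 2.53 to 16.8 per degree of freedom, and each mouse was kept as a replicate. As a share of all reads, mir-151-3p was 7.65% ± 0.42 in wt, 7.70% ± 0.38 in AGAT-/- and 7.78% ± 0.58 in AGAT-/-hArg mice (SD, n = 5). The lowest and highest shares were 6.93% and 7.93% in wt, 7.31% and 8.26% in AGAT-/-, and 6.82% and 8.37% in AGAT-/-hArg mice. All 3 groups overlapped. In bulk tissue, fewer cells of a type and less RNA per cell cannot be told apart.

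Levels were also expressed as CPM, counts scaled to 1 common total after edgeR's TMM normalization, which adjusts for the composition of each library. Wt mice 1 to 5 had 77364, 78962, 79576, 77726 and 81250 CPM, a mean of 78976 ± 1557. AGAT-/- mice 6 to 10 had 80720, 74264, 74120, 83107 and 76925 CPM, with a mean of 77827 ± 3984. AGAT-/-hArg mice 11 to 15 had 75944, 73386, 74407, 68133 and 80187 CPM, with a mean of 74411 ± 4364 (SD, n = 5 for each mean). The wt mice lay within the range of the AGAT-/- mice, and the AGAT-/-hArg range reached below both. On this scale the means were ordered wt, AGAT-/-, AGAT-/-hArg, the opposite of their order by share of all reads. On neither scale did neighbours in the order differ beyond their spread. In CPM, the means of wt and AGAT-/-hArg mice lay further apart than either SD, while their ranges overlapped. As a share of the reads outside mir-378, the means were 28.9% ± 0.75, 28.3% ± 1.06 and 27.8% ± 1.53. Mouse 14, of the AGAT-/-hArg group, had the lowest value of all 15 mice on each of the 3 scales. Wt mouse 4 had the lowest share of all reads in its group, 6.93%, but 77726 CPM, since its TMM factor, 0.891, scaled it upwards.

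**Figure D1:**
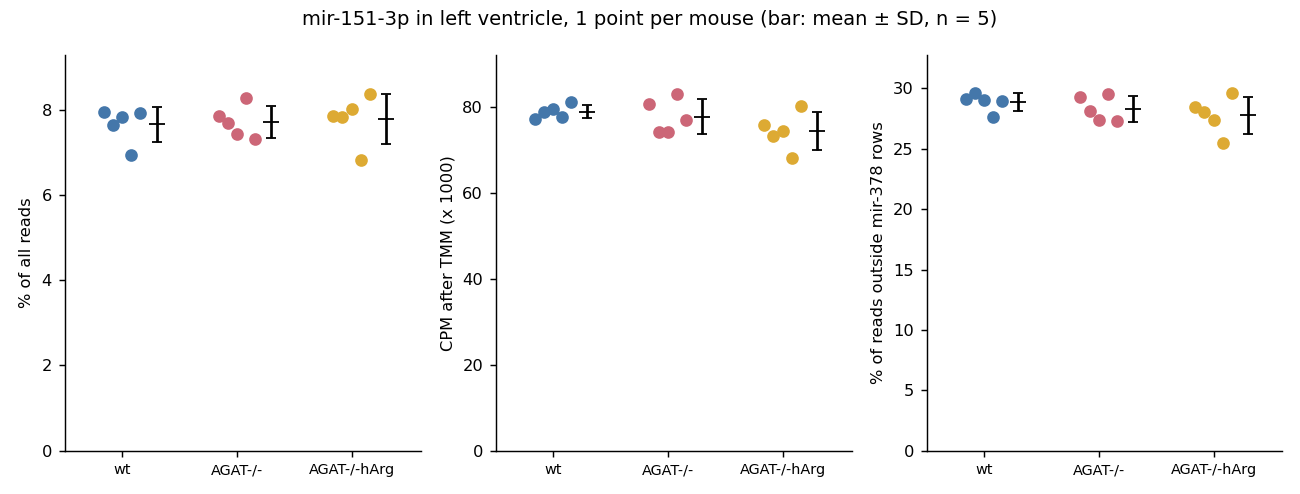
Mir-151-3p in each mouse (points, 5 per group in order of mouse number) as percent of all reads, as CPM after TMM normalization (in units of 1000) and as percent of the reads outside mir-378, with the mean and SD of each group beside them. The groups overlap on all 3 scales, and the group means are 7.65%, 7.70% and 7.78% on the first and 78976, 77827 and 74411 CPM on the second.

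The deposited reads of mir-151 lay on 1 arm. Mir-151-5p was at 0 in each of the 15 libraries, so that the 3p share of the deposited mir-151 reads was 100% in every mouse. If the 5p arm was counted and deposited like the 3p arm, this allows it a share of up to 0.00057% of mir-151 reads (3 reads of the total). If it was not, the 0 sets no limit. Without reads, mir-151-5p could not be fitted in any comparison, and a change of arm with genotype or supplement could not be examined.

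An arm at 0 was frequent among highly read precursors. The counts hold a row for both arms of every precursor, also of mir-28b, for which the reference sequences used here hold only 1 mature form. An arm at 0 can thus be one without an annotated mature miRNA, which was not checked for the precursors named here. Of 918 precursors, 357 had reads on both arms, 269 only on the 3p arm, 181 only on the 5p arm and 111 on neither. Among the 27 precursors with a mean of at least 1000 reads per library, mir-151 was 1 of 10 whose other arm was at 0, along with mir-378a, mir-378c, mir-378d, mir-24-2, mir-125b-2, mir-92a-2, let-7j, mir-181c and mir-144. The other 17 had reads on the lesser arm, with a median share of 10.2% and a range of 0.0202% to 49.6%. For example, mir-145a, a miRNA of smooth muscle, had 16 reads on its 5p arm beside 79253 on its 3p arm. Rows at 0 also included arms that define the tissue. The 3p rows of mir-1a-1, mir-1a-2, mir-133a-1, mir-133a-2, mir-208a and mir-208b, which hold the usual mature miRNAs of cardiac muscle, were at 0 in all libraries, while their 5p rows had between 16 and 3305 reads over the 15 libraries. Whether mir-151-5p was lacking in the tissue, was not counted or was left out of the deposited counts cannot be told apart in these counts.

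**Figure D2:**
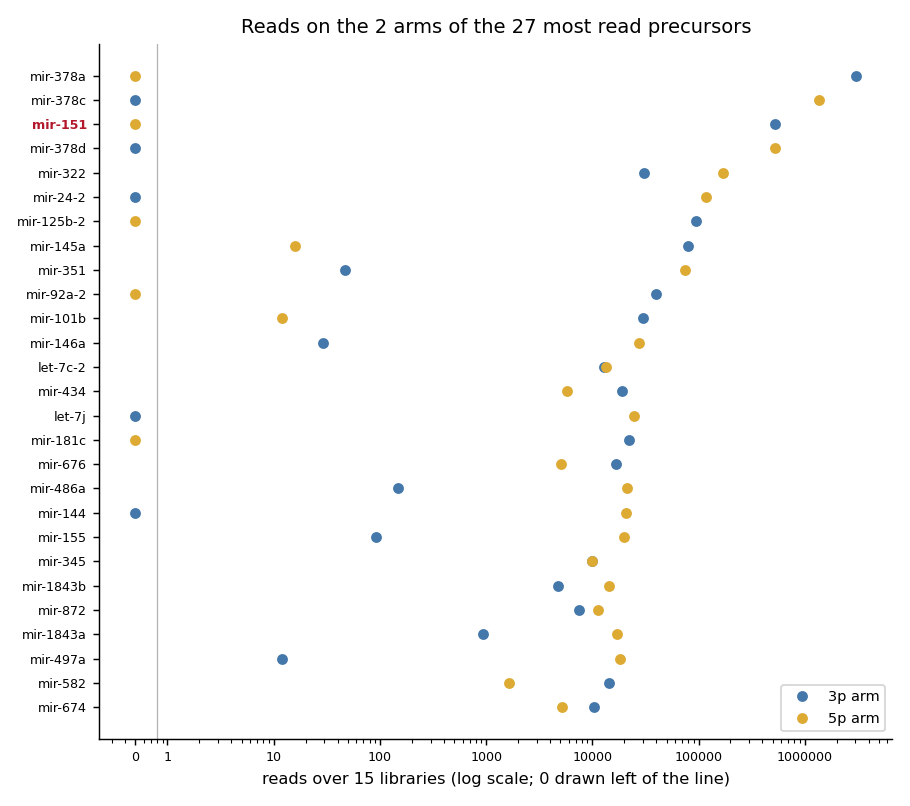
Reads summed over 15 libraries on the 3p arm (blue) and the 5p arm (yellow) of the 27 precursors with a mean of at least 1000 reads per library, on a log axis with 0 drawn to the left of the line. Mir-151, in red, has 526727 reads on its 3p arm and 0 on its 5p arm, and 9 other precursors also have an arm at 0.

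The comparison of AGAT-/- with wt mice asks what the loss of AGAT does to cardiac miRNAs. Mir-151-3p had a log2 fold change of -0.04 (SE 0.0504, 95% interval -0.141 to 0.071), or 0.976-fold with an interval of 0.907 to 1.05. The sign turned with total counts in place of TMM (0.0098), so no direction is given. Of 562 miRNAs tested, those whose reads in the 10 libraries added up to more than 10, 12 differed at an FDR of at most 0.05 by edgeR's quasi-likelihood test, or 2.14%. Of the mir-151 rows, 1 was tested and 0 were among them, a count the choice of mir-151 had fixed.

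The comparison of AGAT-/-hArg with AGAT-/- mice asks what homoarginine does when AGAT is missing. Here mir-151-3p had a log2 fold change of -0.05 (SE 0.0546, 95% interval -0.167 to 0.060), or 0.963-fold (0.891 to 1.04). With total counts the value was 0.0145, and without mouse 14 it was -0.03, so again no direction is given. Of 580 miRNAs tested, 4 were past the FDR, or 0.69%, and mir-151-3p was not among them.

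Between AGAT-/-hArg and wt mice, which differ in genotype, supplement and lane, the log2 fold change of mir-151-3p was -0.09 (SE 0.0563, 95% interval -0.204 to 0.031), or 0.942-fold (0.868 to 1.02). It was 0.0243 with total counts and -0.05 without mouse 14. Of 569 miRNAs tested, 17 were past the FDR, or 2.99%, without mir-151-3p. The groups of each comparison overlapped for mir-151-3p, as they did for all but 3.38%, 2.41% and 3.87% of the miRNAs tested in the 3 comparisons. The choice of mir-151 had fixed this overlap, as it had the absence of a call in each comparison. These comparisons share their mice in pairs and are not independent.

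Small fold changes were the rule among highly read miRNAs. Over all miRNAs tested, the median size of the log2 fold change was 0.254 for AGAT-/- against wt, 0.237 for AGAT-/-hArg against AGAT-/- and 0.278 for AGAT-/-hArg against wt. Over the 22 with a mean of at least 1000 reads per library, it was 0.085, 0.0662 and 0.0886. Ordered from the smallest, the fold change of mir-151-3p was number 5, 9 and 11 of these 22 in the 3 comparisons. Its fold change was thus within the range of other abundant miRNAs, which reached from -0.268 to 0.276, from -0.204 to 0.233 and from -0.274 to 0.305. Its standard error was among the smallest, number 3, 4 and 3 of 22.

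**Figure D3:**
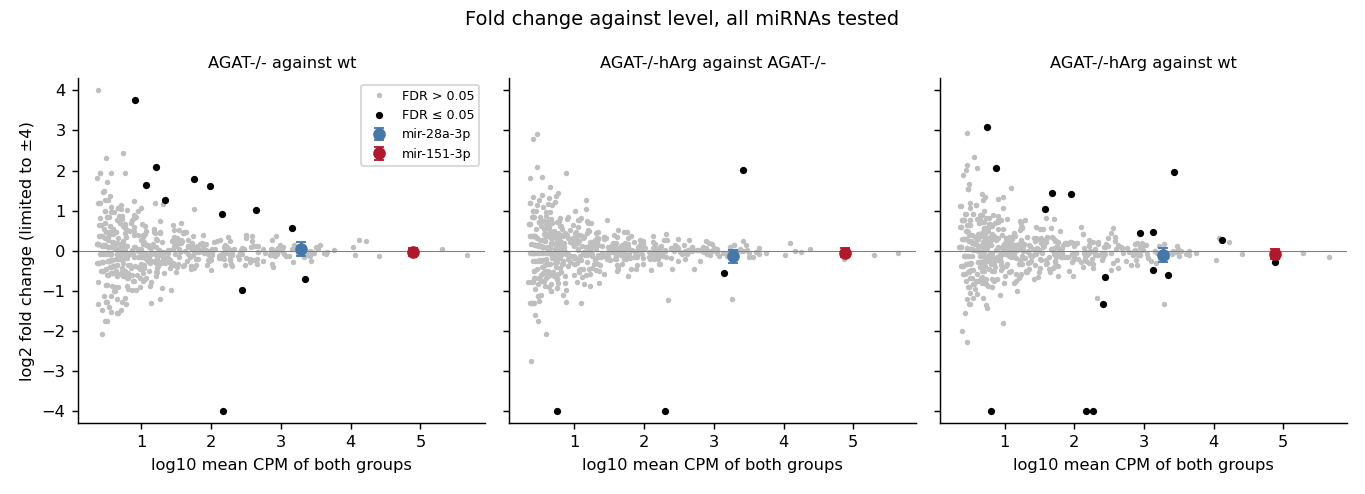
Log2 fold change, limited to ±4, against log10 of the mean CPM of both groups for all miRNAs tested in each comparison, with miRNAs past the FDR in black and mir-151-3p (red) and mir-28a-3p (blue) with their 95% intervals. Mir-151-3p sits near 0 at the right end of each panel, at -0.04, -0.05 and -0.09.

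Mice of a group were close to each other in mir-151-3p after TMM. The coefficient of variation (CV, SD over mean) of its CPM was 1.97% in wt, 5.12% in AGAT-/- and 5.86% in AGAT-/-hArg mice, with a mean of 4.32%. Among 125 rows with a mean of at least 50 reads per library, only mir-378c-5p (3.65%) and mir-872-5p (3.73%) had a lower mean CV on this scale. The median was 11.6% over these rows and 9.91% over the 22 rows with a mean of at least 1000 reads. The spread of mir-151-3p was nevertheless several times its counting error of 0.534%. The TMM factors are computed from the same libraries in which mir-151-3p takes a large share of reads. By share of all reads, the CV of mir-151-3p was 5.50%, 4.90% and 7.41% in the 3 groups. On that scale mir-378a-3p, mir-378c-5p and mir-125b-2-3p, among the 10 most read rows, had a lower CV than mir-151-3p in each group. The order of CVs above is that after TMM and was not computed for shares.

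**Figure D4:**
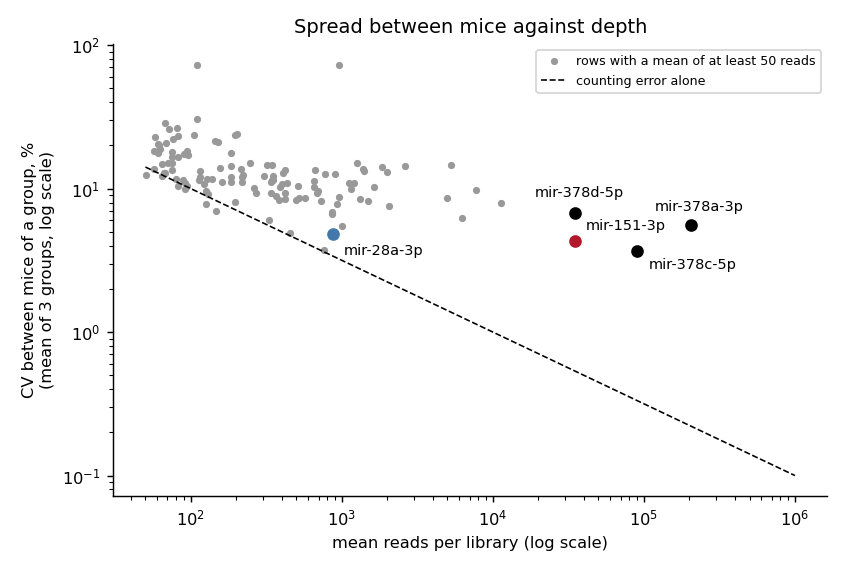
Mean CV of CPM after TMM between mice of a group, in percent, against mean reads per library, both on log axes. Points are the 125 rows with a mean of at least 50 reads, with the counting error as a dashed line. Mir-151-3p (red, 4.32%) lies below most rows but well above the counting error, while mir-28a-3p (blue, 4.86%) lies close to the line.

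Mir-151-3p and mir-378d-5p held rank 3 and rank 4 of all rows between them. Mir-151-3p had rank 3 in 6 libraries and rank 4 in 9. It exceeded mir-378d-5p in 1 wt, 1 AGAT-/- and 4 AGAT-/-hArg mice. The ratio of mir-151-3p to mir-378d-5p was 0.962 ± 0.085 in wt (0.826 to 1.06), 0.984 ± 0.087 in AGAT-/- (0.917 to 1.13) and 1.09 ± 0.12 in AGAT-/-hArg mice (0.901 to 1.20; SD, n = 5), so the groups overlapped. Mir-378d-5p itself fell by 0.27 on the log2 scale in AGAT-/-hArg against wt mice (SE 0.062, FDR = 0.0131 by edgeR). That call was lost without mouse 11 (FDR = 0.0993 by edgeR) or without mouse 15 (FDR = 0.0554 by edgeR). Rows of the mir-378 family have similar sequences, and reads could be split between them in counting. The supplemented mice were also those of lane 2.

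The relatives of mir-151 had far fewer reads in these counts. Of 10 rows of mir-28a, mir-28b, mir-28c, mir-708 and mir-325, 4 had reads and 6 were at 0, among them all rows of mir-28b and mir-708. As with the cardiac arms at 0, such a row does not show that a miRNA was lacking in the tissue. Mir-28a-3p held 13009 reads, and mir-151-3p had between 35.8 and 47.8 times as many reads in a library. This ratio was 41.2 ± 2.25 in wt, 39.0 ± 3.06 in AGAT-/- and 41.6 ± 3.96 in AGAT-/-hArg mice (SD, n = 5), again with overlapping groups. Like mir-151, mir-28a was read on its 3p arm only, with mir-28a-5p at 0.

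Of the relatives, 2, 3 and 3 rows were tested in the 3 comparisons and 0 passed the FDR by edgeR, DESeq2 or limma-voom, against 2.14%, 0.69% and 2.99% of all miRNAs by edgeR, 2.7%, 0.862% and 8.84% by DESeq2 (of 518, 580 and 249 with an adjusted p) and 2.67%, 0.69% and 3.16% by limma-voom. At an unadjusted p under 0.05 by edgeR, the counts were 0, 1 and 1, beside 10.7%, 7.41% and 12.5% of all miRNAs. In AGAT-/-hArg against wt mice, DESeq2 gave mir-28c-3p no adjusted p, so that row could not pass there. So few rows say little against such shares. Mir-28a-3p had 1922 ± 112 CPM in wt (1752 to 2030), 1998 ± 86.8 in AGAT-/- (1938 to 2148) and 1795 ± 79.2 in AGAT-/-hArg mice (1677 to 1897). AGAT-/-hArg and AGAT-/- mice did not overlap in mir-28a-3p, as for 2.41% of all miRNAs tested, with a log2 fold change of -0.14 (SE 0.0751, 95% interval -0.301 to 0.011, FDR = 0.695). As CPM without TMM, they did overlap, with 1750 to 2025 against 1882 to 2058. Mir-28c-3p had 58 reads in all, with 0 to 4 per wt, 1 to 5 per AGAT-/- and 3 to 11 per AGAT-/-hArg library. Its log2 fold change of 1.34 between AGAT-/-hArg and wt mice (SE 0.538) had an FDR of 0.262 by edgeR. Mir-325-3p and mir-325-5p had 17 and 10 reads in all.

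Other miRNAs within host genes gave a second point of reference for mir-151. The list held 48 rows of 24 precursors, such as mir-208a in Myh6, mir-499 in Myh7b and mir-378a in Ppargc1b, of which 22 rows had reads. Of these, 17, 19 and 18 were tested in the 3 comparisons, and 0, 0 and 1 passed the FDR by edgeR, compared with 2.14%, 0.69% and 2.99% of all miRNAs. DESeq2 called 1, 0 and 1 of them, beside 2.7%, 0.862% and 8.84% of the 518, 580 and 249 miRNAs with an adjusted p. Limma-voom called 1, 0 and 2 of them, beside 2.67%, 0.69% and 3.16% of all miRNAs. By edgeR, 2, 1 and 3 of the list had an unadjusted p under 0.05, beside 10.7%, 7.41% and 12.5% of all miRNAs. The 1 was mir-499-5p, from an intron of a myosin heavy chain gene, which was higher in AGAT-/-hArg than in wt mice (log2 fold change 0.43, SE 0.0965, FDR = 0.0131). That call was lost without wt mouse 5 (FDR = 0.0659 by edgeR) or without mouse 15 (FDR = 0.0554 by edgeR). In AGAT-/- against wt mice, mir-499-5p had a log2 fold change of 0.36 (SE 0.0993, FDR = 0.0639 by edgeR). The median log2 fold change of the list was -0.11, 0.06 and -0.09, beside -0.04, 0.02 and 0.02 over all miRNAs tested.

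Within 5 Mb on either side of mir-151, 12 rows of 6 precursors were in the counts. Of these, 9 had reads, beside 1164 of 1836 rows in all, and 6 were tested in each comparison. The rows mir-30b-5p, mir-30d-3p and mir-6953-5p were at 0 and could not be compared. Of the 6 tested, 0 passed the FDR by edgeR, DESeq2 or limma-voom, beside 2.14%, 0.69% and 2.99% of all miRNAs by edgeR, and the lowest FDR was 0.535, 0.95 and 0.489. An unadjusted p under 0.05 by edgeR was found for 0, beside 10.7%, 7.41% and 12.5% of all miRNAs. With 6 rows, nothing is read from a count of 0. The nearest precursor in the counts was mir-6952, 2810.0 kb away, with 106 reads on its 3p arm. The most read was mir-30b-3p, from a gene 4917.4 kb away, with 2755 reads and log2 fold changes of 0.24, 0.01 and 0.25 (SE 0.122, 0.133 and 0.137).

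The miRNAs most like mir-151-3p from mouse to mouse differed between the measures of likeness, except for mir-6944-3p. Among 124 rows with a mean of at least 50 reads, the highest Pearson correlations with mir-151-3p in log2 CPM over the 15 libraries were 0.622 for mir-185-3p, 0.587 for mir-6944-3p, 0.586 for mir-542-5p, 0.573 for mir-7068-3p and 0.547 for mir-3966-5p. After group means were subtracted, they were 0.699 for mir-30b-3p, 0.616 for mir-6944-3p, 0.583 for mir-191-3p, 0.553 for mir-3968-3p and 0.551 for mir-674-3p. The median over the 124 rows was 0.0116 and, after subtraction, -0.0252. The lowest values were nearly as far from 0 as the highest, -0.532 for mir-378b-3p and, after subtraction, -0.605 for mir-677-5p. For mir-28a-3p the values were 0.135 and -0.283. These are descriptions, since all points share libraries, depth and TMM factors, and each leading row was picked from many.

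Marker miRNAs of cell types were summed over their rows in these counts. The 3p rows of mir-1a, mir-133a, mir-208a, mir-208b and mir-143 were at 0, and mir-145a-5p had 16 reads. The sums therefore depend on which arms have reads here and do not show how much of each cell type the tissue held. The summed CPM of 14 cardiac muscle rows, 8 of them with reads, was between 1800 and 2110 in wt, 1920 and 2490 in AGAT-/- and 2000 and 2380 in AGAT-/-hArg mice. For 6 red blood cell rows, 3 with reads, it was 5660 to 7190, 5560 to 7070 and 5470 to 7120, with mir-451a at 0 on both arms. For 4 smooth muscle rows, 3 with reads, it was 9460 to 11900, 10500 to 13900 and 9850 to 16700, nearly all from mir-145a-3p. For 6 leukocyte rows, 3 with reads, it was 60.7 to 123, 71.0 to 95.8 and 47.9 to 80.5. The ranges of the groups overlapped in all of these lists, as they did for mir-151-3p. Endothelial and liver rows reached at most 27.2 CPM in sum, and no row of the neuron list was in the counts used here. The part of these cells in the level of mir-151-3p was not tested.

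Across the ways of processing the counts, mir-151-3p stayed close to a fold of 1. Leaving single mice out gave log2 fold changes of -0.05 to 0.03 for AGAT-/- against wt, -0.10 to -0.03 for AGAT-/-hArg against AGAT-/- and -0.11 to -0.05 for AGAT-/-hArg against wt. Other tools, scalings and filters gave -0.04 to 0.0098, -0.06 to 0.0145 and -0.09 to 0.0243. In 55 of 58 such repeats over the 3 comparisons, the value moved by less than 1 SD between mice.

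**Figure D5:**
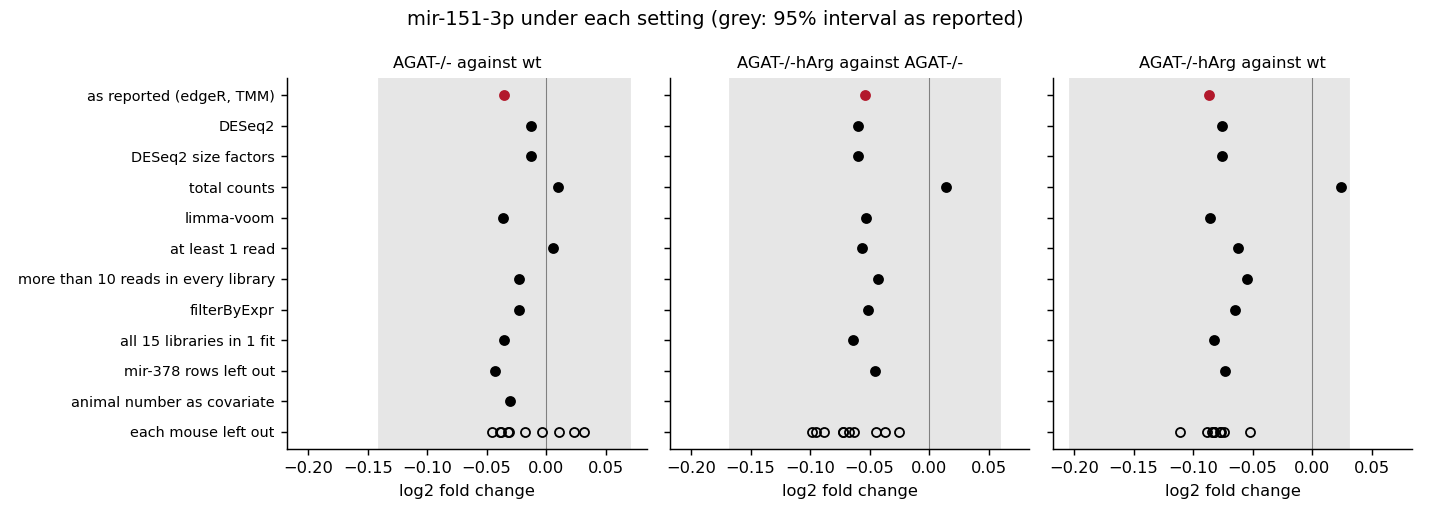
Log2 fold change of mir-151-3p in the 3 comparisons as reported (red), under other tools, scalings and filters (black) and with each mouse left out (open circles), with the 95% interval as reported in grey. All points lie within that interval, and total counts give a value above 0 in each comparison (0.0098, 0.0145 and 0.0243).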

How the data were processed

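MiRNA was sequenced from 15 LV samples. The authors mapped reads to the murine miRNAs of miRBase with the CLC Genomics Workbench and deposited raw counts per mature arm, without normalization. Whether some arms were not counted or were left out cannot be told from the deposited values. The study's own sequencing results include mir-30b-5p, mir-30d-3p and mir-107-3p, which are at 0 in the deposited counts. A 0 in these counts therefore need not mean that an arm had no reads. The submitters' notes list GRCm38. The miRBase release, the mismatches allowed and the treatment of reads matching several miRNAs are not given in the sources used here. Groups came from the labels, and all 15 columns were used. Members and gene lists were chosen with earlier results of these data known.

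Groups were compared pairwise with edgeR 4.0.16 in R 4.3.3 (TMM, glmQLFit, glmQLFTest) on miRNAs whose reads in the 10 libraries added up to more than 10, with Benjamini-Hochberg adjustment and an FDR limit of 0.05. The minimum follows the study's methods, which do not say whether it is per library or summed. Fold changes are fitted values, intervals are 95%, and a prior count of 1 entered log2 CPM. With the totals given, 3 reads equal 5.26 to 8.20 CPM without TMM, which covers counting error only. The labels do not give the litter of each mouse, and p-values cover the spread between these mice. The fits were tried on simulated counts that gave all miRNAs the same spread between mice beyond counting error. In the real counts this spread differed between miRNAs, and error rates there were not tested.

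Named miRNAs were the mir-151 rows, the mir-28, mir-708 and mir-325 rows, the 10 most read rows, the 5 rows most correlated with mir-151-3p on each of 2 measures, a list of host-gene miRNAs and miRNA genes within 5 Mb. A further part of that rule, rows sharing a seed with mir-151, was not applied, because the mature sequence of mir-151 was not in the reference used. Mir-378d-5p, mir-872-5p, mir-378b-3p, mir-677-5p, the precursors with an arm at 0 and mir-6952 were named after their values were seen where a count or rank needed it. Alternatives were DESeq2 1.42.0, its size factors or total counts in edgeR, limma-voom (version 3.58.1 of limma), 3 other filters on low counts, all 15 libraries in 1 fit, mir-378 rows left out, each mouse left out and, for AGAT-/- against wt, the animal number as a covariate. Summaries used Python 3.11.15 with pandas 2.3.3. QPCR values of the study were not used here.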

Additional observations from a re-analysis of the deposited data

Results flagged for a closer look

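In mir-28a-3p, the related miRNA with the most reads, 1 AGAT-/- mouse (mouse 10) stood above the other 4 of its group, with 2147.6 CPM against 1991.4 for the nearest. The gap was 0.745 of the range of the group. Without TMM, mouse 10 had 2040 CPM, below the 2058 CPM of mouse 7, and did not stand apart. Among 18 groups of 5 mice examined, chance flags about 1 in 20. For mir-151-3p, no mouse stood apart from its group in this way.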

How the results depend on the processing

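No paired analysis was possible because the labels do not give the litter of each mouse. The replicate numbers run from 1 to 15 over the mice and pair none of them. With each mouse left out, the log2 fold change of mir-151-3p ranged from -0.04545 to 0.0317 for AGAT-/- against wt, where it was above 0 without wt mouse 5 (0.0236) or AGAT-/- mouse 10 (0.0317), and total counts gave 0.02425 for AGAT-/-hArg against wt. The level of mir-151-3p was 76493 CPM in wt mice with total counts, and 287700, 287550 and 274760 in wt, AGAT-/- and AGAT-/-hArg mice when mir-378 rows were left out, as fewer reads then make up the total. The number of miRNAs past the FDR was 18 for AGAT-/- against wt with every miRNA of at least 1 read and 8 with more than 10 reads in every library, 8 and 2 for AGAT-/-hArg against AGAT-/-, and 28 for AGAT-/-hArg against wt with at least 1 read. With single mice left out it was 8 to 17, 3 to 6 and 10 to 20, the low values of the last without wt mouse 5 (11) and AGAT-/-hArg mouse 15 (10). Signs turned for mir-28a-3p in AGAT-/- against wt with the animal number (-0.01941) and in AGAT-/-hArg against wt with total counts (0.01318), and for mir-30b-3p in AGAT-/-hArg against AGAT-/- with all libraries in 1 fit (-0.002278) or single mice left out (-0.07705 to 0.08947); none of these passed the FDR. Mir-499-5p in AGAT-/- against wt passed it under 7 of the other tools, scalings and filters (DESeq2, FDR = 0.00957). The cause of these shifts was not tested. Few reads limit the relatives other than mir-28a-3p, while mir-151-3p had at least 26563 reads in each library.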
